A study of Homo sapiens with 4 samples.

Results

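The genes described here encode the proteins of the cytosolic ribosome, followed in the human lung cancer cell line NCI-H1944 (H1944) after exposure to BAY1217389. They were chosen by symbol alone: every gene named RPL or RPS with a number, optionally followed by A or X, and RPLP0, RPLP1, RPLP2 and RPSA. This gave 77 of the 46427 genes listed, 46 of the large subunit and 31 of the small subunit. BAY1217389 inhibits the kinase MPS1 (TTK), which delays the separation of chromosomes until all are attached to the spindle. In the BAY1217389 group, H1944 cells were kept in the inhibitor for 48 h and in fresh medium for 24 h before RNA was taken, and the DMSO group received the vehicle on the same schedule. Each group had 2 libraries of poly(A)-selected RNA, labelled as biological replicates of this single cell line, and no gene was altered in either group. The stated aim of the series concerns negative regulators of STING, a pathway that responds to DNA in the cytosol.

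Ribosomes are built from ribosomal RNA and matched amounts of each ribosomal protein, and their proteins are encoded by some of the most abundant messenger RNAs of a growing cell. Nearly all of these messenger RNAs begin with a C followed by a run of C and T, the 5′ terminal oligopyrimidine (TOP) motif. Through this motif the kinase mTOR, acting by way of the RNA-binding protein LARP1, sets how strongly the messages are translated and how stable they are. A ribosomal protein that finds no partner is normally degraded, and free RPL5 and RPL11 can bind MDM2, the ligase that holds p53 low.

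The start of the message is shown for the 6 members with the largest and the 6 with the smallest fall that had an entry in the RefSeq promoter table (GRCh38.p14), so that the shared motif can be read beside the values that follow. Each line holds the 15 bases before the annotated start and the 15 bases from it on, 5′ to 3′ on the strand of the gene. Capitals mark the run of C and T that starts at a C within 5 bases of the annotated start, and the runs of RPL4 and RPL39 go on beyond the window. The largest falls come first.
RPL3 (chr22:39319609-39319638, minus strand): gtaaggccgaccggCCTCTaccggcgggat
RPL10A (chr6:35468386-35468415, plus strand): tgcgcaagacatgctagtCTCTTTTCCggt
RPS6 (chr9:19380222-19380251, minus strand): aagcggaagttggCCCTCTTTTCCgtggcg
RPL4 (chr15:66504841-66504870, minus strand): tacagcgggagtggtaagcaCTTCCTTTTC
RPS3A (chr4:151099613-151099642, plus strand): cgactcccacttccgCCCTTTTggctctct
RPLP0 (chr12:120201097-120201126, minus strand): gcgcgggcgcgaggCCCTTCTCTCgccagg
RPL39 (chrX:119791616-119791645, minus strand): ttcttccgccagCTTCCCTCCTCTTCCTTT
RPL35 (chr9:124861943-124861972, minus strand): agccccgcctaCTTCCTCTTTCCCTCggag
RPS27 (chr1:153990747-153990776, plus strand): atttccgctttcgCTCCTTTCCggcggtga
RPS29 (chr14:49598696-49598725, minus strand): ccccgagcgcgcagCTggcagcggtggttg
RPS19 (chr19:41860240-41860269, plus strand): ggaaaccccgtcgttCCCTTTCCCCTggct
RPL36 (chr19:5690280-5690309, plus strand): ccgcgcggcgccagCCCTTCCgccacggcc
A run of at least 5 C or T was present in 50 of the 62 members with an entry (80.6%), against 22.6% of the 11994 promoters of genes tested here and 21.1% of all 27305 promoters. A run of at least 8 was present in 40 members (64.5%), against 6.17% and 5.36% of the same promoters. Annotated starts can lie a few bases from the start the cell uses, so a short run such as that of RPS29 says only what stands at the annotated position. The length of the run, with a median of 10 and a range of 1 to 22, had a Spearman correlation of -0.05 with the log2 fold change over the 62 members. Both printed groups hold long runs, and RPL39, with the longest of all, stood among the smallest falls.

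The libraries held 43661342 and 43067647 reads assigned to genes after BAY1217389, against 39332931 and 38904473 after DMSO. Every member had between 7012 and 114147 reads in each library, so counting error was small and all 77 passed the filter on low counts. Levels are in CPM, reads scaled to library size with edgeR's TMM factors, and where no library values are listed they are the group's mean ± SD (n = 2). With so few libraries an SD can come out smaller than the counting error. Log2 fold changes are BAY1217389 over DMSO, so a negative value means lower after BAY1217389. The epithelial keratins KRT8 (2698 ± 50.3 CPM after BAY1217389 against 2202 ± 5.15 CPM after DMSO) and KRT18 (1805 ± 51.9 CPM after BAY1217389 against 1582 ± 0.547 CPM after DMSO) were abundant. The lung lineage markers NKX2-1 and SFTPB and the keratin KRT19 had 0 reads in all 4 libraries, which allows up to 3 reads in each by counting error alone. NAPSA, another lung marker, was detected at a low level, 0.775 CPM after BAY1217389 and 0.636 CPM after DMSO. EPCAM averaged 2.66 CPM after BAY1217389 and 2.19 CPM after DMSO, and the epithelial gene CDH1 37.9 CPM after BAY1217389 and 33.9 CPM after DMSO. Of 6 markers of other cell types, PTPRC and COL1A2 were at 0 in every library, CD3E had 0 to 2 reads and VWF had 15 reads in 1 BAY1217389 library and 0 in the others. COL1A1 averaged 6.41 CPM after BAY1217389 and 4.27 CPM after DMSO and PECAM1 1.52 CPM after BAY1217389 and 0.789 CPM after DMSO, low levels that were both higher after BAY1217389, and their part in the members' values was not tested. In the fit, 13.3% of the 16738 genes tested were lower after BAY1217389 and 14.5% were higher.

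Ribosomal protein transcripts fell almost throughout, by small and unequal amounts. Of the 77 members, 74 were lower after BAY1217389 and 0 were higher, with calls made by edgeR's quasi-likelihood test at a Benjamini-Hochberg adjusted p below 0.05. All 77 fitted log2 fold changes were below 0, so that 0 were higher at an unadjusted p under 0.05 as well, and DESeq2 and limma-voom also called 0 higher. At these depths small changes are easily called, and 30.8% of the 1971 genes averaging at least 100 CPM were lower and 26.8% higher. The median log2 fold change of the members was -0.19, a fall by 12.3%, against 0.00 over all genes tested and -0.01 over genes averaging at least 100 CPM. In all 77 members both BAY1217389 libraries lay below both DMSO libraries, which was so for 30.5% of all genes and 43.2% of genes averaging at least 100 CPM. With 2 libraries against 2, a permutation test of a single gene cannot go below p = 0.333, so the calls rest on the spread shared across genes.

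Fewer members passed a test against a minimum size. Tested against a fold of 1.2 in the same fit (edgeR's glmTreat with Benjamini-Hochberg adjustment), 10 members were lower, beside 1.81% of all genes and 2.94% of genes averaging at least 100 CPM. They were RPL3, RPL23, RPL10A, RPL5, RPL4, RPL7 and RPLP0 of the large subunit and RPS6, RPS2 and RPS3A of the small subunit. The log2 fold changes of all members ran from -0.49 for RPL3 to -0.07 for RPL36. Their SD across members was 0.0855, against a median standard error of 0.0253, so the members differed among themselves by more than the error of the single estimates.

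The subunits fell together. The test called 45 of 46 large subunit members and 29 of 31 small subunit members lower, and the median log2 fold change was -0.19 for the large and -0.18 for the small subunit. The summed reads of large subunit members made up 3.45% and 3.44% of the BAY1217389 libraries, against 4.08% and 4.15% of the DMSO libraries. Those of small subunit members made up 2.06% and 2.06% of the BAY1217389 libraries, against 2.43% and 2.45% of the DMSO libraries. In both subunits the BAY1217389 libraries lay below the DMSO libraries and close to each other. Together the 77 genes took 5.51% and 5.51% of reads after BAY1217389, against 6.50% and 6.60% after DMSO. The ratio of large to small subunit reads was 1.670 and 1.671 in the BAY1217389 libraries, against 1.679 and 1.690 in the DMSO libraries. The ratio was thus slightly lower in both BAY1217389 libraries, but the nearest libraries of the groups were closer to each other than the DMSO libraries were. The difference between the subunits' median log2 fold changes, large minus small, was -0.01 and turned sign when single libraries were left out, from -0.02 to 0.02. Reads are shares of a library, so these values say nothing of the total RNA per cell, and in bulk RNA a lower content per cell cannot be told apart from a changed mix of cells.

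**Figure D1:**
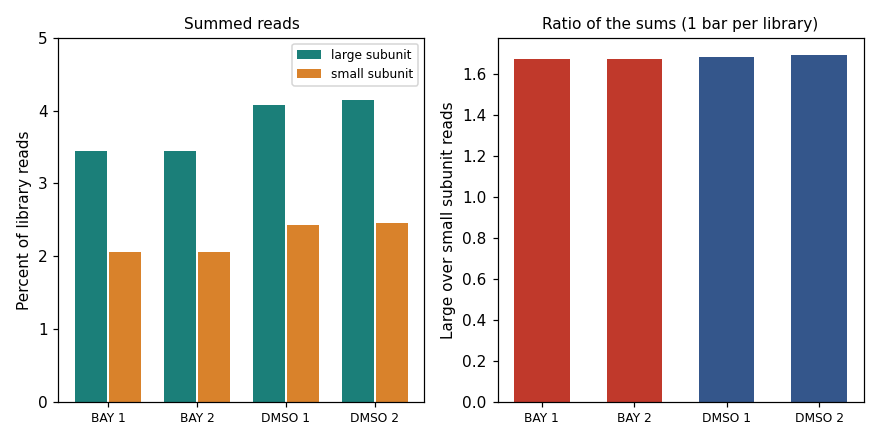
Summed reads of large (teal) and small (orange) subunit genes as a percent of library reads in each of the 4 libraries (left), and the ratio of the sums, with 1 bar per library (right). Both sums are lower in the BAY1217389 libraries, while the ratio stays between 1.670 and 1.690 in all 4.

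Around the peptidyl transferase centre, where peptide bonds are formed, RPL3, RPL8 and RPL10 were all lower, with a median log2 fold change of -0.28. Since 74 of all 77 members were lower, counts in groups of members by role or chromosome, here and below, are not read as results about those groups. RPL3, a core protein that reaches toward this centre, had 1505 and 1535 CPM after BAY1217389, against 2138 and 2143 CPM after DMSO. The libraries of each group lay close together and far from the other group's. Its log2 fold change was -0.49 (SE 0.02), with an adjusted p of 2.29e-20 in edgeR's quasi-likelihood test. RPL10, which joins the large subunit late in assembly, had 585 and 586 CPM after BAY1217389, against 714 and 707 CPM after DMSO (log2 fold change -0.28, SE 0.02). RPL10A, the protein of the flexible L1 stalk where used transfer RNA leaves, had 459 and 469 CPM after BAY1217389, against 596 and 604 CPM after DMSO. The groups again did not overlap, and the log2 fold change of RPL10A was -0.37 (SE 0.03).

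All 4 members of the P-stalk, which recruits the elongation factors, were lower, with a median log2 fold change of -0.23. RPLP0, its base, had 1560 and 1587 CPM after BAY1217389, against 1969 and 1951 CPM after DMSO, and its log2 fold change was -0.32 (SE 0.02). RPL12, which anchors the base to the ribosome, had 860 and 849 CPM after BAY1217389, against 1036 and 1051 CPM after DMSO, with a log2 fold change of -0.29 (SE 0.02). The acidic proteins RPLP1 and RPLP2, which are bound to RPLP0 as dimers, had log2 fold changes of -0.17 (SE 0.02) and -0.15 (SE 0.03). In each of the 4 genes both BAY1217389 libraries were below both DMSO libraries.

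RPL5 and RPL11 form a particle with the 5S ribosomal RNA, and both messages were lower. RPL5 had 673 and 671 CPM after BAY1217389, against 864 and 865 CPM after DMSO (log2 fold change -0.36, SE 0.02). RPL11 had 404 and 404 CPM after BAY1217389, against 451 and 450 CPM after DMSO (log2 fold change -0.16, SE 0.03). RPL5 also passed against a fold of 1.2, which RPL11 did not, and the difference between them was not tested.

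Of 9 members that line or surround the tunnel through which the new protein leaves, all 9 were lower, and their median log2 fold change was -0.19. The deepest was RPL4, whose loop narrows the tunnel, with 1549 ± 5.29 CPM after BAY1217389 against 1952 ± 10.9 CPM after DMSO (log2 fold change -0.33, SE 0.02). The least changed were RPL35 and RPL39 at the exit, both at -0.10 (SE 0.03), with adjusted p of 0.00737 and 0.0207 in edgeR's quasi-likelihood test. RPL39 had 242 and 232 CPM after BAY1217389, against 251 and 257 CPM after DMSO. The space between the groups was smaller than the gap between the BAY1217389 libraries. RPL22, the outer-surface protein with the paralog RPL22L1, had 370 and 366 CPM after BAY1217389, against 453 and 446 CPM after DMSO (log2 fold change -0.29, SE 0.03). RPL22L1 itself, at 21.7 ± 0.79 CPM after BAY1217389 against 24.0 ± 0.25 CPM after DMSO, did not pass (log2 fold change -0.15, SE 0.07, adjusted p 0.154 by edgeR's quasi-likelihood test).

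RPL13A had the highest level of all members in both groups, with 2351 and 2394 CPM after BAY1217389 against 2894 and 2915 CPM after DMSO, and a log2 fold change of -0.29 (SE 0.02). Per kilobase of coding sequence it stood at 3895 CPM after BAY1217389 and 4769 CPM after DMSO, and RPL36, the lowest member on this scale, at 554 CPM after BAY1217389 and 581 CPM after DMSO. RPL41, a peptide of 25 amino acids at the subunit interface, had the highest value on that scale, 15109 CPM after BAY1217389 and 16482 CPM after DMSO. The scale divides by the coding part alone, so it overstates messages that lie mostly outside it. The level of RPL41 was 1143 and 1123 CPM after BAY1217389, against 1223 and 1249 CPM after DMSO (log2 fold change -0.13, SE 0.02).

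**Figure D2:**
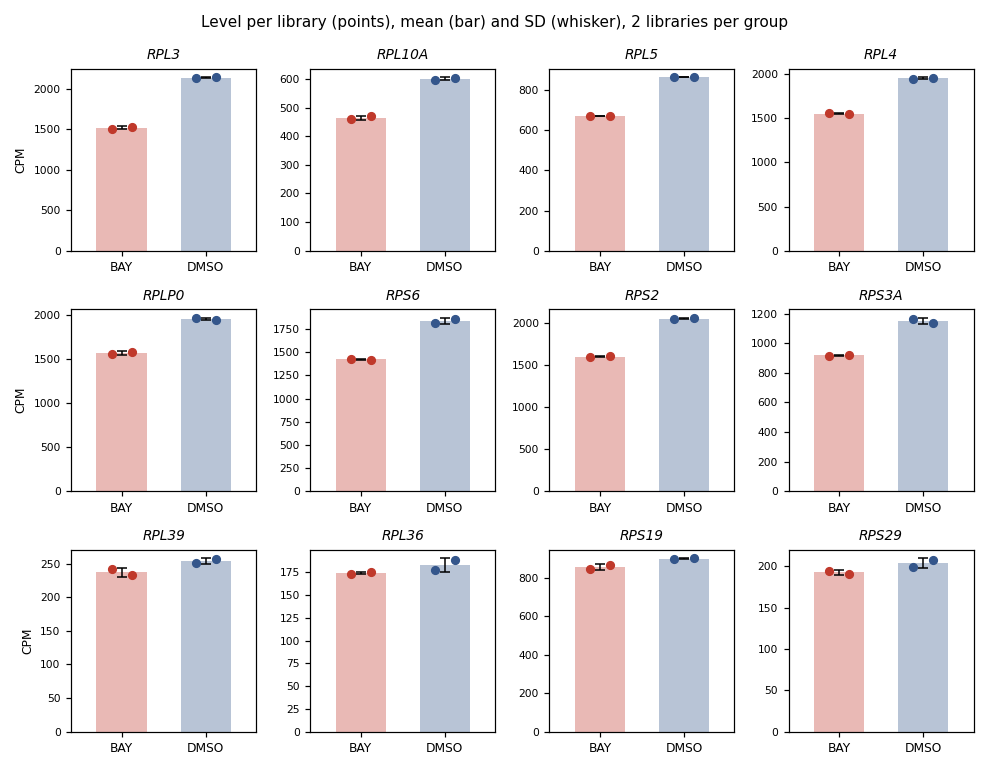
Level in CPM of 12 ribosomal protein genes in each library, with points for the 2 BAY1217389 libraries (red) and the 2 DMSO libraries (blue), bars for the group mean and whiskers for the SD. The upper 8 panels show genes lower by more than 1.2-fold, with wide gaps between the groups, and the bottom 4 show RPL39, RPL36, RPS19 and RPS29, whose groups lie close together.

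In the small subunit the deepest falls were RPS6, RPS2 and RPS3A. RPS6, the protein that S6 kinases phosphorylate below mTOR, had 1426 and 1421 CPM after BAY1217389, against 1816 and 1863 CPM after DMSO. Its log2 fold change was -0.37 (SE 0.02), a fall by 22.6% with an adjusted p of 2.64e-16 in edgeR's quasi-likelihood test. RPS2, at the entry of the messenger RNA channel, had 1593 and 1599 CPM after BAY1217389, against 2040 and 2053 CPM after DMSO (log2 fold change -0.36, SE 0.02). RPS3A, on the platform near the channel's exit, had 915 and 919 CPM after BAY1217389, against 1166 and 1138 CPM after DMSO (log2 fold change -0.33, SE 0.02). In all 3 the gap between the groups was several times the gap between libraries of a group.

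All 4 members at the entry of the messenger RNA channel and the decoding site were lower, with a median log2 fold change of -0.25. RPS3, which holds the incoming messenger RNA, fell by 0.29 (SE 0.02) on the log2 scale, RPS23 by 0.20 (SE 0.03) and RPS15 by 0.14 (SE 0.03). At the exit of the channel RPS14 (-0.21) and RPS26 (-0.10) were lower. RPS28, also at the exit, did not pass, with 168 and 189 CPM after BAY1217389 against 190 and 199 CPM after DMSO, so that the BAY1217389 libraries were farther apart than the groups. RPS27A, made as a fusion with ubiquitin, fell by 0.17 (SE 0.03) on the log2 scale. RPSA, also known as a laminin receptor, fell by 0.19 (SE 0.03) on the log2 scale. RPS4X, encoded on the X chromosome, had 1247 and 1233 CPM after BAY1217389, against 1517 and 1479 CPM after DMSO (log2 fold change -0.27, SE 0.02), and all 4 members on that chromosome were lower.

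The 3 members that did not pass were RPL36, RPS28 and RPS29, the least abundant members in CPM. RPL36 had 173 and 175 CPM after BAY1217389, against 178 and 188 CPM after DMSO, with a log2 fold change of -0.07 (SE 0.03) and an adjusted p of 0.139 in edgeR's quasi-likelihood test. RPS29, a small zinc-binding protein, had 195 and 190 CPM after BAY1217389, against 199 and 208 CPM after DMSO, with a log2 fold change of -0.08 (SE 0.03) and an adjusted p of 0.0691. For RPS28 the log2 fold change was -0.12 (SE 0.05) and the adjusted p 0.0824. In all 3 genes the groups did not overlap, but the gap between them was smaller than the gap between libraries of at least 1 group. RPL36 passed under none of the 15 alternatives run, with adjusted p of 0.0815 to 0.730, while RPS28 and RPS29 passed with library sizes alone (adjusted p 0.0457 and 0.0383). Upper-quartile factors also let RPS28 and RPS29 pass (adjusted p 0.0369 and 0.0484 in the same test). With a filter of at least 5 CPM in 2 libraries RPS28 passed (0.00899), while RPS19 did not (0.0607). RPS19 and RPL39 did not pass without a filter on low counts (0.0617 and 0.0537). Single libraries moved the values of RPS28 and RPL36. The log2 fold change of RPS28 was -0.05 and -0.20 without the first and the second BAY1217389 library, and that of RPL36 was -0.11 and -0.03 without the first and the second DMSO library.

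RPS19, the gene most often mutated in the inherited bone marrow failure Diamond-Blackfan anaemia, was an abundant member that hardly moved. It had 844 and 865 CPM after BAY1217389, against 896 and 900 CPM after DMSO, and its log2 fold change of -0.07 (SE 0.02) passed narrowly (adjusted p 0.0217 by edgeR's quasi-likelihood test). Without either DMSO library or without the first BAY1217389 library it did not pass, with adjusted p of 0.0835 without the BAY1217389 library and 0.144 and 0.189 without the DMSO libraries. Of the 20 members known as Diamond-Blackfan anaemia genes, 18 were lower, with a median log2 fold change of -0.16, from -0.36 for RPL5 to -0.07 for RPS19. Of all 77 members 74 were lower, with a median of -0.19, so this count is not read as a result about these 20 genes. The other two, RPS28 and RPS29, did not pass. Leaving out a single library also ended the call of RPL35, RPL35A, RPL38, RPL39, RPS26 or RPS27 in at least 1 case, and 68 to 73 members were then lower.

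The size of the fall went with the length of the protein. Over the 77 members the Spearman correlation between coding length and log2 fold change was -0.74. It was -0.75 over the 46 large and -0.67 over the 31 small subunit members. The length of the whole transcript gave a weaker Spearman correlation, -0.40 over the 77 members. That length is the length of 1 annotated GENCODE form per gene, for RPL37 7686 bases with a coding length of 291. Which form the cells used was not determined, so the weaker value does not rank coding length above message length. The 26 members with the shortest coding sequences, 25 to 135 amino acids, had a median log2 fold change of -0.15, and 23 of them were lower. The 26 of middle length, 136 to 192 amino acids, had a median of -0.19, and all 26 were lower. The 25 longest, 194 to 427 amino acids, had a median of -0.29, all 25 were lower, and they held 9 of the 10 members below the 1.2-fold bound. RPL23, with 140 amino acids, was the exception among the 10 (395 and 401 CPM after BAY1217389, against 520 and 515 CPM after DMSO, log2 fold change -0.38, SE 0.03). RPL6 and RPSA, with 288 and 295 amino acids, both had a log2 fold change of -0.19, above the -0.36 of RPS2 and RPL5, with 293 and 297 amino acids.

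**Figure D3:**
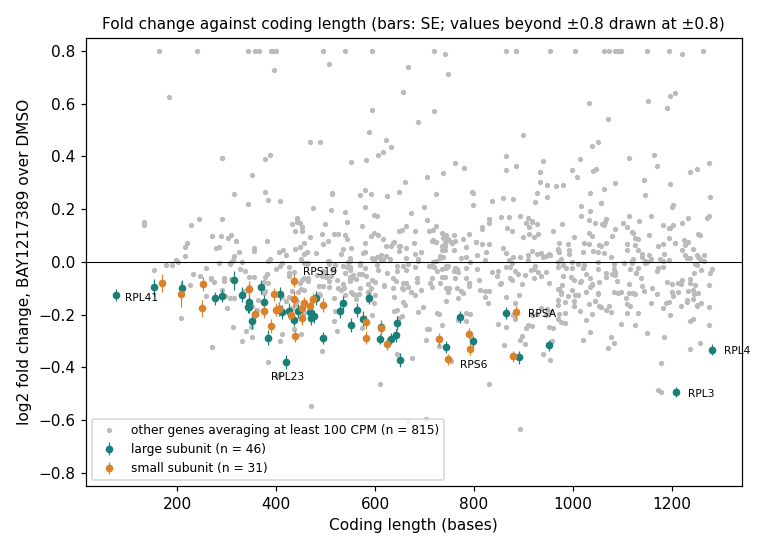
Fitted log2 fold change (BAY1217389 over DMSO, vertical axis, bars of 1 standard error) against coding length in bases for large (teal) and small (orange) subunit genes, with 815 other genes averaging at least 100 CPM and no longer than the longest member in grey. The ribosomal protein genes slope downward with length, from -0.13 for RPL41 to -0.49 for RPL3 and -0.33 for RPL4, while the grey points lie around 0 at every length.

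Other genes averaging at least 100 CPM gave a correlation near 0. As a set they were less abundant, with a median of 172 CPM against 648 CPM for the members. Those of the coding lengths of the longest members had a median of 170 CPM, against 1131 CPM for these members. The other genes were thus not matched to the members in level. Over 1840 other genes averaging at least 100 CPM, the Spearman correlation between coding length and log2 fold change was 0.08. Those of the same coding lengths as the shortest, middle and longest members had median log2 fold changes of -0.01, -0.04 and -0.01. Within single pairs of a BAY1217389 and a DMSO library, the correlation over the members was between -0.72 and -0.64. Between the BAY1217389 libraries it was -0.14 and between the DMSO libraries 0.31, with SDs of the log2 ratios of 0.0380 and 0.0338, against 0.0827 to 0.0940 in the pairs across groups. The shortest 26 members made up 23.6% and 23.4% of member reads after BAY1217389, against 22.1% and 22.3% after DMSO, and the longest 25 made up 48.7% and 48.9% after BAY1217389, against 51.1% and 50.9% after DMSO. Length and level went together in the members (Spearman correlation 0.59 between coding length and mean CPM), and the correlation of mean CPM with the log2 fold change was -0.49. The part of level in the relation to length was not tested, and the genes are not independent points, since they share libraries and a scaling factor.

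**Figure D4:**
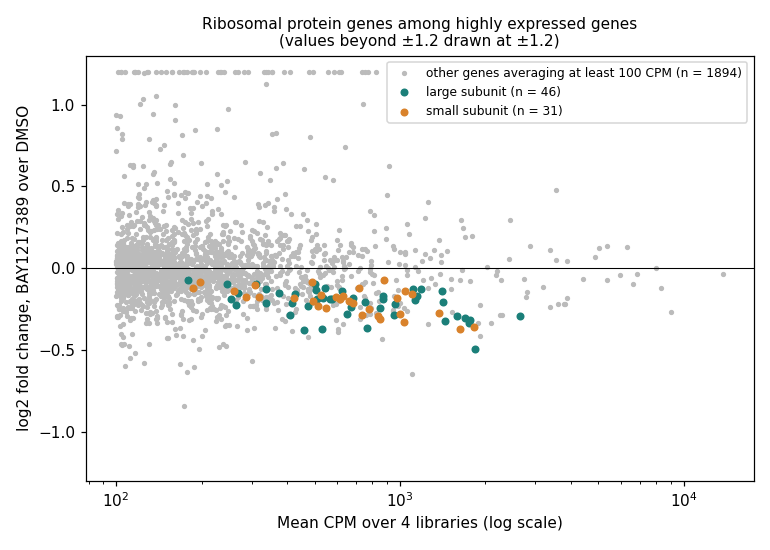
Fitted log2 fold change (BAY1217389 over DMSO, vertical axis) against the mean level over the 4 libraries (CPM, log scale) for large (teal) and small (orange) subunit genes and 1894 other genes averaging at least 100 CPM (grey). The 77 ribosomal protein genes lie below 0 at every level, with RPL3 lowest and the most abundant, RPL13A, at -0.29, while the grey points lie on both sides of 0.

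The promoters of the members were searched for 5 motifs on both strands, over the 250 bases before the annotated start. Bases after the start were not searched. CCGGAAG, the core bound by ETS factors such as GABP, was present in 18 of the 62 members with an entry, against 15.1% of the promoters of genes tested here and 8.82% of all promoters. TCTCGCGA, an element of broadly active promoters, was present in 17.7% of members, against 1.98% and 1.05%. CACGTG, the E-box bound by MYC and MAX, was present in 4.84% of members, against 8.75% and 6.49%. For AAGATGG, the core bound by YY1, the shares were 1.61% against 3.45% and 3.77%, and for TATAAA, the TATA box, 8.06% against 5.93% and 11.1%. The members with CCGGAAG had a median log2 fold change of -0.18 and those without it -0.19, and the 11 members with TCTCGCGA had a median of -0.24 against -0.18 for the other 51. A match is a run of letters and does not show that a factor binds there. The 150 bases before the annotated start are shown for the members with the largest fall in each subunit that had an entry, with matches in capitals, since both carry CCGGAAG.
RPL3 (chr22:39319624-39319773, minus strand): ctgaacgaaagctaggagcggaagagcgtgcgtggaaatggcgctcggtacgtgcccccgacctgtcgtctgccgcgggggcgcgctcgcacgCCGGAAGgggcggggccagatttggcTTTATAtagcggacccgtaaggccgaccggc
RPS6 (chr9:19380237-19380386, minus strand): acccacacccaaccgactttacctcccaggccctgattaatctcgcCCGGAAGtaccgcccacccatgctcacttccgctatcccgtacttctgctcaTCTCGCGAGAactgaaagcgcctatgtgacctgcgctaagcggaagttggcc
In RPL3 the capitals after CCGGAAG are TATAAA read on the other strand. In RPS6 the second block is TCTCGCGA on both strands, which overlap because the letters are nearly palindromic.

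Other messages known for a 5′ TOP motif fell as well. Of 20 such genes, most of them for translation factors, 19 were lower, 6 of them by more than 1.2-fold, and the median log2 fold change was -0.27. Beside them 13.3% of all genes were lower, and 1.81% by more than 1.2-fold. Among genes averaging at least 100 CPM these shares were 30.8% and 2.94%. The 20 genes were abundant, with a median of 768 CPM. EIF4B, which helps unwind messenger RNA, averaged 861 ± 4.29 CPM after BAY1217389 and 1349 ± 0.316 CPM after DMSO, a log2 fold change of -0.65 (SE 0.02) that exceeded every ribosomal protein gene's. EIF3L, a subunit of an initiation factor, averaged 243 ± 0.754 CPM after BAY1217389 and 359 ± 2.14 CPM after DMSO (log2 fold change -0.57, SE 0.03). The elongation factor genes EEF1A1 and EEF2 had log2 fold changes of -0.27 and -0.41 (SE 0.02 each), and the poly(A)-binding protein gene PABPC1 -0.34 (SE 0.02). EIF4A2, at -0.07 (SE 0.03), did not pass.

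Ribosomal proteins whose names fall outside the rule were looked at beside the members. RACK1, a scaffold on the small subunit, averaged 948 ± 7.39 CPM after BAY1217389 and 1123 ± 19.6 CPM after DMSO and was lower (log2 fold change -0.25, SE 0.02). FAU, made as a fusion with a ubiquitin-like protein, had a log2 fold change of -0.03 (SE 0.03) and did not pass (adjusted p 0.640 by edgeR's quasi-likelihood test). Of 9 paralogs, 8 were tested and RPL3L had 0 reads in every library. RPL7L1 (-0.10, SE 0.03) and RSL24D1 (-0.13, SE 0.04), whose yeast counterparts act in ribosome assembly, were lower. RPS27L, a p53 target, was higher, at 97.9 ± 1.84 CPM after BAY1217389 and 89.8 ± 1.59 CPM after DMSO (log2 fold change 0.12, SE 0.04, adjusted p 0.0183).

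Genes that act on ribosomal protein messages and proteins were called in both directions. Of 22 genes for the control of TOP messages and of ribosomal gene transcription, 6 were lower and 2 higher, and their median log2 fold change was -0.05. Beside them 13.3% of all genes were lower and 14.5% higher, and 30.8% and 26.8% of genes averaging at least 100 CPM, so neither these counts nor those of the 12 genes named next are read as a result about a list. Among them MLST8, a subunit of mTOR complexes (-0.39, SE 0.05), UBTF, a factor for ribosomal DNA transcription (-0.29, SE 0.04), and EIF4EBP1, an inhibitor of initiation below mTOR (-0.21, SE 0.04), were lower. RRN3, which brings RNA polymerase I to ribosomal DNA, was higher (0.27, SE 0.05), and MYC was higher by 0.11 (SE 0.04) on the log2 scale. LARP1 and MTOR themselves did not pass, both with a log2 fold change of -0.05 (SE 0.03 and 0.05). Of 12 genes for chaperones and importins of ribosomal proteins, 5 were lower and 2 higher. The importins IPO5 (-0.35, SE 0.03) and IPO7 (-0.27, SE 0.03) and RPF2, which in yeast loads the 5S particle (-0.30, SE 0.06), were lower, while BCCIP, whose yeast counterpart is a ribosomal protein chaperone, was higher (0.14, SE 0.04).

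Fewer genes of the mitochondrial ribosome were called. Of 78 genes named MRPL or MRPS, 23 were lower and 3 higher, beside 13.3% of all genes lower and 14.5% higher. The log2 fold change was below 0 in 62 of the 78, beside 8326 of all 16738 genes tested. Their median log2 fold change was -0.09, against -0.19 for the 77 cytosolic genes. MRPL51 averaged 86.5 ± 1.85 CPM after BAY1217389 and 108 ± 0.408 CPM after DMSO (log2 fold change -0.33, SE 0.04), while MRPL17 averaged 44.7 ± 0.319 CPM after BAY1217389 and 34.2 ± 0.746 CPM after DMSO (log2 fold change 0.38, SE 0.06). The mitochondrial genes were less abundant, with a median of 38.7 CPM after BAY1217389 and 39.5 CPM after DMSO, so fewer small changes could be called, and their part in the counts was not tested.

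Reads of processed pseudogenes bear on how exactly the members were measured, since the way shared reads were assigned is not given in the sources used here. The count table lists 1429 genes named as pseudogenes of members, of which 639 had reads, amounting to between 1.98% and 2.05% of member reads in each library. In 4 members the pseudogenes' reads exceeded 10% of the member's own: RPL9 (50.6%), RPSA (19.7%), RPL41 (13.5%) and RPL36A (10.7%). RPL9P8 alone averaged 181 CPM after BAY1217389 and 219 CPM after DMSO, with a log2 fold change of -0.28 (SE 0.03), beside -0.22 (SE 0.03) for RPL9. RPS2 stood just below that bound (9.68%), and its pseudogene RPS2P5 had a log2 fold change of -0.34 (SE 0.04). Values of these members are therefore uncertain. The others are not free of this limit, since reads counted on pseudogenes do not show how many shared reads were dropped or credited to a member. With pseudogene reads added to their parents 74 members were again lower.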

How the data were processed

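The values deposited by the authors are whole-number counts of reads for each gene symbol, per the file headers, from poly(A)-selected, strand-marking libraries, per the labels' protocols. The submitters' processing notes name the build hg18, but the counts carry RefSeq identifiers issued after that build, so the annotation used for counting is uncertain. Aligner, counting tool and strand setting: not given in the sources used here. Another 16 columns of per-sample values match no sample and were not used. Counts were fitted with edgeR 4.0.16 in R 4.3.3: filterByExpr (minimum count 10, minimum total 15) left 16738 genes, TMM factors lay between 0.994 and 1.01, and glmQLFTest was run two-sided with treatment as the term, with p-values adjusted over all genes (threshold 0.05). Residual degrees of freedom were 2, prior degrees of freedom 31.1 and the biological coefficient of variation 3.99%. Libraries of a group differed beyond sampling noise (chi-square per degree of freedom 3.93 for BAY1217389 and 3.74 for DMSO). DESeq2 1.42.0 and limma 3.58.1 served as alternatives, and the procedure was tested on simulated data. Coding lengths are those of GENCODE 29 (all 77 members), and promoter sequences come from RefSeq (62 members). The members and gene lists were chosen with earlier results of these data known. Named members are, in each subunit, the 4 lowest and 4 highest fold changes, the 2 highest and 2 lowest levels, those that did not pass and those of set roles. Others were named after their values were seen, and some genes are not reported here.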

Additional observations from a re-analysis of the deposited data

How the results depend on the processing

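Over 11 alternatives (other scalings, filters, tests, thinning, added pseudogene reads and a replicate block) 72 to 76 members were lower and 0 higher, with a median between -0.20 and -0.17, and 7 to 12 were lower by more than 1.2-fold where that test could be run. Leaving out each library in turn gave 68 to 73 lower, 7 to 10 of them by more than 1.2-fold, and medians of -0.20 to -0.19. The median of the large subunit was -0.20 with library size only, -0.20 with upper-quartile factors and -0.17 with at least 5 CPM in 2 libraries, and -0.21 to -0.19 with a library left out. The difference between the medians of the longest and shortest members, an alternative chosen after seeing the data, was -0.16 to -0.13 with a library left out. Large minus small subunit medians ran from -0.02 to 0.02. The cause of these shifts was not tested. Without a library the calls of RPL35, RPL35A, RPL38, RPL39, RPS19, RPS26 and RPS27 were lost in at least 1 case, and RPS28 passed without the first DMSO library (adjusted p 0.00778) and without the second BAY1217389 library (0.000930, both by edgeR's quasi-likelihood test). The libraries share replicate numbers, but deviations of same-numbered libraries had a correlation of 0.04 over 16738 genes and 0.18 over the 77 members, and no label says that a number marks a shared batch, so the numbers were not taken to pair them. With a replicate block 75 members were lower, with a median of -0.19, and RPS28 passed (adjusted p 0.00438 by edgeR's quasi-likelihood test). No other named member changed its call with the block. Thinning to equal depth left 74 members lower, and 2 libraries per group, as well as the unknown assignment of shared reads, limit the precision.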
